A study of Mus musculus with 42 samples.

Results

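The genes described here are 34 genes of protein folding, quality control and stress signalling in the endoplasmic reticulum (ER), measured in mouse synovial fibroblasts. They were chosen by gene symbol, not by a threshold on measured values. All 34 were found among the 18194 genes with a probe set of their own, through 76 probe sets, and 23 of the 34 genes had more than 1. One probe set stands for each gene, and no filter on low values removed a member. The values are deposited log2 signals in which each probe set has a median of 0 over the 42 arrays. A value therefore shows how an array stands against the other arrays, and levels of different genes were not compared.

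The arrays measured RNA of cultured synovial fibroblasts of female BALB/c mice in which arthritis had been raised by immunization with cartilage proteoglycan in DDA adjuvant. The mice were TSG6-knockout (KO), lacking Tnfaip6, or wild-type (WT); their age is not given in the labels. Cells were grown in 10% fetal calf serum for at most 6 passages, kept overnight in 0.5% serum, and then treated for 12 hours or left untreated. All groups therefore share the arthritis, the passaging and the low serum. TSG6 is a secreted protein that binds hyaluronan (HA), and TNFa and lipopolysaccharide (LPS) are inflammatory stimuli. The KO groups received 5 ng/ml TNFa (4 arrays), 200 ng/ml LPS (4), 120 µg/ml recombinant mouse TSG6 (3), 24 µg/ml HA (4), TSG6 with HA at those doses (4) or nothing (8). The WT groups had 2 arrays for each of these 5 treatments and 5 untreated arrays. The labels call the arrays biological replicates without naming animals, so p-values measure the spread between these cultures.

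Proteins that enter the ER are folded there by chaperones such as BiP (Hspa5), by lectin chaperones and by disulfide and prolyl isomerases, and misfolded ones are returned to the cytosol for degradation. When unfolded protein accumulates, the sensors IRE1 (Ern1), PERK (Eif2ak3) and ATF6 start the unfolded protein response, in which XBP1 and ATF6 raise chaperone and transport genes. PERK acts through ATF4, which other kinases also raise during amino acid shortage, and ATF4 drives Trib3, Asns, Chac1, Atf3 and Ddit3. Synovial fibroblasts secrete collagen and other matrix proteins and so depend on this machinery.

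Several facts of the whole series bear on the results. The probe set of Tnfaip6, the gene deleted in the KO mice, was not lower in KO cultures: untreated arrays averaged -0.11 ± 0.23 in KO (SD, n = 8) and -0.37 ± 0.16 in WT (SD, n = 5), a difference of 0.26 ± 0.16 (adjusted p = 0.22). Its place relative to the deleted part is unknown here. It therefore does not check the labels, and KO below means arrays labelled knockout. Probe sets with separated levels divided the arrays of each genotype into culture sets, of 14 and 13 KO arrays and 8 and 7 WT arrays. No label names these sets. Each holds arrays of every group of its genotype because the search kept only splits with every group on both sides. The 18S ribosomal RNA control exceeded 1 on 15 arrays, 10 KO and 5 WT. Endothelial markers were far lower in KO cultures: the mean over 9 markers lay between -0.792 and -0.625 in the 6 KO groups and between 3.13 and 3.63 in the 6 WT groups. Their part in the differences between genotypes was not tested.

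Promoter sequences, from RefSeq on GRCm38.p6, were searched because several members are known targets of the same factors. They cover 250 bases before to 50 after a gene's start and were found for 31 of the 34 genes. The searched elements, on both strands, were the ER stress elements ERSE (CCAAT, any 9 bases, then CCACG) and ERSE-II (ATTGG, any base, then CCACG), the unfolded protein response element UPRE (TGACGTGG) and the C/EBP-ATF response element CARE (TGATGNAA). No found element overlapped another; that of Hspa5 ran from position -65 to -47. ERSE was found in 8 of the 31 genes (25.8%), against 0.119% of all 32851 promoters. These genes were Hspa5, Hsp90b1, Dnajc3, Calr, Canx, Pdia6, Creld2 and Syvn1. ERSE-II was found in Dnajb11 and Herpud1 (6.45%, against 0.0365% of all promoters). UPRE was found in Sec24d and Kdelr3 (6.45%, against 0.676%). CARE was found in Herpud1, Atf3, Trib3, Asns and Chac1 (16.1%, against 3.97%). A match is a description of the letters and was not tested as a site.

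**Figure D1:**
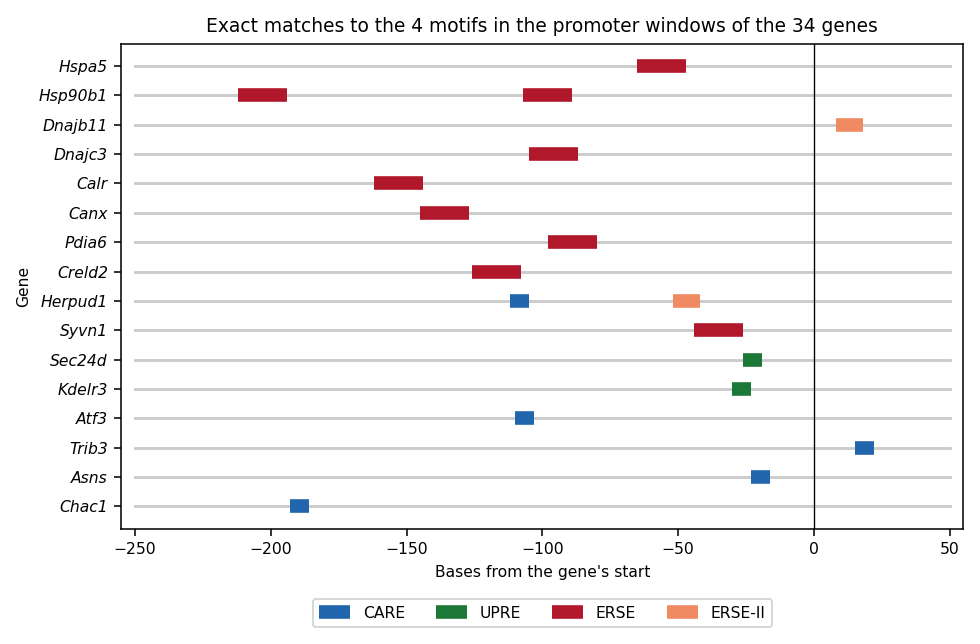
Position of each exact motif match (coloured bars) in the promoter window of the 16 genes that held at least 1, in bases from the gene's start. ERSE bars belong to chaperone and quality control genes, and CARE bars to Herpud1 and the genes of the ATF4 programme.

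The stretches below show the elements of the chaperone, transport and ATF4 programme genes on which the results turn, read along the gene's own strand, with the element in capitals (its reverse complement where it lies on the other strand). Those of Dnajb11 and Trib3 lie just after the start and are shown as 28 bases.
Hspa5 (chr2:34772000-34772068, plus strand, ERSE): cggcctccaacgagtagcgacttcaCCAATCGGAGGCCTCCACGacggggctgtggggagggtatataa
Hsp90b1 (chr10:86705508-86705681, minus strand, ERSE): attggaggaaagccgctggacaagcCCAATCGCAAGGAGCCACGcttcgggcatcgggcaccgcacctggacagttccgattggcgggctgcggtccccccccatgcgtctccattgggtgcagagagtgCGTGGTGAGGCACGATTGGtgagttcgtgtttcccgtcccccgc
Creld2 (chr15:88819495-88819563, plus strand, ERSE): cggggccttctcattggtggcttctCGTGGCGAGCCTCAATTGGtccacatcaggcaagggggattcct
Herpud1 (chr8:94386292-94386412, plus strand, CARE and ERSE-II): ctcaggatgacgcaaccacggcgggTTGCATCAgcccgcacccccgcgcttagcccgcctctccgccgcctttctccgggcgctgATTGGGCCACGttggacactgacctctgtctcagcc
Dnajb11 (chr16:22857844-22857871, plus strand, ERSE-II): cggcggcgATTGGCCCACGcctggctgc
Kdelr3 (chr15:79516353-79516407, plus strand, UPRE): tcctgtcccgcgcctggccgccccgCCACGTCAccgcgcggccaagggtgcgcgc
Sec24d (chr3:123267445-123267495, plus strand, UPRE): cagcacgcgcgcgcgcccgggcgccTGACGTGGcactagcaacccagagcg
Atf3 (chr1:191183411-191183468, minus strand, CARE): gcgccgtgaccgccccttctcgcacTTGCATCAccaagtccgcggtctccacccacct
Trib3 (chr2:152344029-152344056, minus strand, CARE): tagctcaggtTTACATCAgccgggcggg
Asns (chr6:7693210-7693257, minus strand, CARE): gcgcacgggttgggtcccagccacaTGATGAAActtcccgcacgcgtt
Chac1 (chr2:119351024-119351081, plus strand, CARE): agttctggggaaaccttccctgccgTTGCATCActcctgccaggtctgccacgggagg

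The first question was which of these genes changed in KO fibroblasts given TNFa. Of the 34 members, 13 passed the test (limma with Benjamini-Hochberg adjusted p under 0.05 over 18194 genes), all higher, where 6.71% of all genes were higher and 7.32% lower (14% called in all). They were Fkbp11, Asns, Trib3, Chac1, Atf4, Sdf2l1, Manf, Creld2, Hspa5, Ern1, Dnajb11, Sec24d and Sec61b. The median log2 fold change of the 34 was 0.21, against 0.01 over all genes. With the culture set as a block the count was again 13 (19% of all genes called). Leaving out the 15 arrays on which 18S was high, it was 8 (2060 of all 18194 genes called). Among these arrays were 2 of the 4 TNFa arrays and 2 of the 8 untreated ones. The calls of Hspa5, Atf4, Trib3 and Chac1 were among those lost.

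Among the lumen chaperones, Hspa5, the main Hsp70-type chaperone of the ER, had log2 values of 0.11, 0.17, 0.23 and 0.40 in TNFa cultures, against values between -0.54 and 0.0041 with a median of -0.20 in untreated KO cultures. Every TNFa array lay above every untreated one, and Hspa5 rose by 0.47 ± 0.11 (adjusted p = 0.00315). Its rise was 0.23 in one culture set and 0.70 in the other. Sdf2l1, a partner of the co-chaperone ERdj3, had 0.62, 0.27, 0.48 and 0.37 in TNFa cultures and values between -0.47 and 0.16 with a median of -0.18 in untreated ones. The groups did not overlap, and Sdf2l1 rose by 0.58 ± 0.12 (adjusted p = 4.58e-04). Dnajb11, which encodes ERdj3 itself, rose by 0.35 ± 0.10 (adjusted p = 0.00977). Hsp90b1 (GRP94), Hyou1, and the co-chaperones Dnajb9 and Dnajc3 did not pass, with changes of 0.12, 0.78, -0.12 and 0.05. Hyou1 was very uneven in TNFa cultures, at 1.44, -0.16, 0.98 and -0.48.

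Fkbp11, a prolyl isomerase of the ER, had 0.48, 0.08, 0.31 and 0.22 in TNFa cultures, against values between -0.80 and -0.42 with a median of -0.67 in untreated ones. The groups were well apart, and Fkbp11 showed the largest change of the 34 genes after TNFa, 0.93 ± 0.13 (adjusted p = 1.1e-06), with 0.94 and 0.93 in the culture sets. Only 1 of its 3 probe sets showed it, the other probe sets giving 0.08 (adjusted p = 0.676) and 0.25 (adjusted p = 0.267). Manf, a small protein secreted under ER stress, had 0.38, 0.23, 0.33 and 0.20 in TNFa cultures and values between -0.48 and -0.02 with a median of -0.26 in untreated ones. Creld2, another ER stress protein, had 0.45, 0.38, 0.41 and 0.39 in TNFa cultures and values between -0.26 and 0.20 with a median of -0.16 in untreated ones. Neither gene's groups overlapped: Manf rose by 0.54 ± 0.10 (adjusted p = 1.21e-04) and Creld2 rose by 0.50 ± 0.07 (adjusted p = 3.15e-06). The disulfide isomerases P4hb, Pdia3 and Pdia4 changed by -0.01, 0.32 and 0.19, the lectin chaperones Calr and Canx by 0.13 and 0.16, and none of these passed. Pdia6 did not pass with the probe set used (0.08), whereas its other probe set gave 0.31 (adjusted p = 0.00447).

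Of the transport genes, Sec61b, the beta subunit of the translocon, rose by 0.26 ± 0.08 (adjusted p = 0.0275), and Sec24d, a cargo subunit of the COPII coat, rose by 0.28 ± 0.07 (adjusted p = 0.00446). Kdelr3, a receptor that returns chaperones from the Golgi, did not pass (0.02 ± 0.08, adjusted p = 0.91). The sensor Ern1 (IRE1 alpha) had 0.47, 0.35, 0.68 and 0.37 in TNFa cultures, against values between -0.12 and 0.21 with a median of 0.10 in untreated ones, with no overlap, and rose by 0.39 ± 0.11 (adjusted p = 0.00877). This came from 1 of its 5 probe sets. Eif2ak3 and Atf6, the other sensors, changed by 0.04 and 0.09 and did not pass.

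Atf4, the central factor of the integrated stress response, had 0.27, 0.36, 0.11 and 0.63 in TNFa cultures, against values between -0.81 and 0.07 with a median of -0.30 in untreated ones. It rose by 0.68 ± 0.19 (adjusted p = 0.0102), with 0.37 and 0.99 in the culture sets, and 2 of its 3 probe sets passed. Asns, the asparagine synthetase whose CARE is printed above, had 0.21, 0.22, 0.08 and -0.03 in TNFa cultures and values between -1.14 and -0.34 with a median of -0.82 in untreated ones. Chac1, which degrades glutathione, had 0.27, 0.22, 0.09 and -0.04 in TNFa cultures and values between -1.02 and -0.11 with a median of -0.56 in untreated ones. In both genes every TNFa array was above every untreated one; Asns rose by 0.87 ± 0.20 (adjusted p = 0.00215) and Chac1 rose by 0.69 ± 0.22 (adjusted p = 0.0325). Trib3, a pseudokinase induced by ATF4, rose by 0.83 ± 0.26 (adjusted p = 0.0262), although its groups overlapped, with 0.47, 0.18, 0.06 and -0.28 in TNFa cultures and values between -1.59 and 0.01 with a median of -0.64 in untreated ones. The calls of Chac1 and Trib3 were each lost without untreated replicate 7 or 8 or TNFa replicate 1, 2 or 3. That of Atf4 was lost without TNFa replicate 4. Xbp1 changed by 0.25 ± 0.21 (adjusted p = 0.516), Ddit3 (CHOP) by -0.09 ± 0.22 (adjusted p = 0.867) and Atf3 by 0.12 ± 0.13 (adjusted p = 0.635), and none of these passed. Splicing of Xbp1 was not measured. Herpud1, Edem1, Sel1l and Syvn1, of ER-associated degradation, changed by 0.23, 0.07, -0.05 and 0.16, and Sesn2, a stress-induced leucine sensor, by -0.20; none of these passed.

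**Figure D2:**
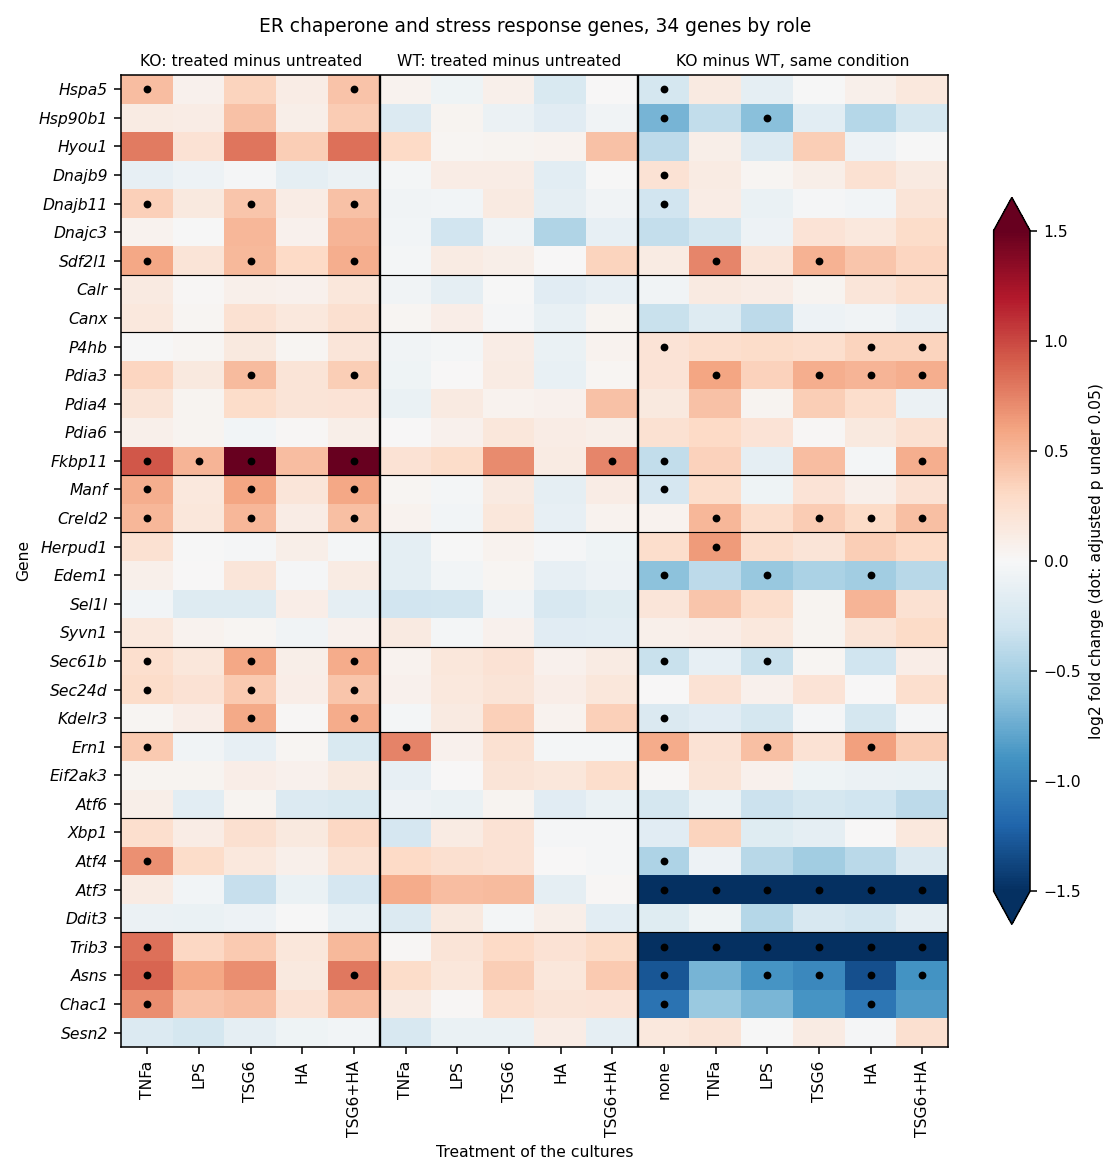
Log2 fold changes of the 34 genes (rows, grouped by role) for each treatment within KO and within WT cultures and for KO against WT in each condition (columns). Red is higher and blue lower in the first-named group, colours saturate at 1.5, and dots mark adjusted p under 0.05. The KO columns for TNFa, TSG6 and TSG6+HA hold 13, 9 and 11 dots, the WT columns for these 1, 0 and 1.

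In KO fibroblasts given back TSG6, 9 of 34 members passed after TSG6, all higher (2.1% of all genes higher and 2.65% lower, 4.75% called in all), and 11 of 34 after TSG6+HA, all higher (3.33% of all genes higher and 6.61% lower, 9.94% called in all). The medians of the 34 genes were 0.26 and 0.27, those of all genes -0.0048 and 0.01. With the culture set as a block the counts were 11 for TSG6 (8.46% of all genes called) and 14 for TSG6+HA (14.6%). The 9 members that rose after TSG6 were Fkbp11, Manf, Sec61b, Kdelr3, Creld2, Sdf2l1, Pdia3, Dnajb11 and Sec24d, so that all 3 transport genes passed, with 2 of 7 lumen chaperones, 2 of 5 isomerases and 0 of 2 lectin chaperones. Hspa5 and Asns passed besides after TSG6+HA. Both comparisons and that of TNFa share the 8 untreated KO arrays. Markers of cell types moved beside these genes after TSG6, TSG6+HA and TNFa. The mean over 13 synovial fibroblast markers was 0.247 after TSG6 (arrays from 0.0462 to 0.442) and 0.304 after TSG6+HA (0.18 to 0.422), against 0.00119 in untreated KO cultures (-0.246 to 0.16). Of the 13, 3 were higher and 1 lower after TSG6, and 4 were higher and 1 lower after TSG6+HA. Col1a1, Col1a2 and Col3a1 are among the 13 and also among the collagen genes described at the end. The mean over 8 smooth muscle and pericyte markers was 0.263 after TSG6 (-0.0604 to 0.534) and 0.115 after TSG6+HA (-0.243 to 0.556), against -0.0246 in untreated cultures (-0.495 to 0.484), and 1 of the 8, Acta2, was higher after each. After TNFa the fibroblast mean was -0.155 (-0.377 to 0.09) and the smooth muscle and pericyte mean -0.25 (-0.584 to 0.248). The mean over 10 macrophage and leukocyte markers was 0.0482 after TNFa (-0.108 to 0.241), against -0.129 in untreated KO cultures (-0.315 to 0.0237). With array medians centred, 2 fibroblast markers and 1 smooth muscle marker were lower after TNFa, and 1 macrophage marker was higher. The part of these markers in the changes was not tested.

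Fkbp11 had 0.98, 0.82 and 0.85 after TSG6 and 1.08, 0.65, 1.28 and 0.95 after TSG6+HA, against values between -0.80 and -0.42 with a median of -0.67 in untreated KO cultures. All 7 treated arrays lay above all untreated ones by more than the range of the untreated group. Fkbp11 rose by 1.54 ± 0.14 (adjusted p = 5.12e-09) after TSG6, a fold of 2.91, and by 1.65 ± 0.13 (adjusted p = 5.19e-11) after TSG6+HA, a fold of 3.13. The changes within the culture sets were 1.55 and 1.51 after TSG6, the second from 1 treated array, and 1.52 and 1.77 after TSG6+HA. As after TNFa, this came from 1 of 3 probe sets; the other 2 gave at most 0.17 in either comparison. None of the 4 promoter elements was found in the window of Fkbp11.

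Kdelr3, whose UPRE is printed above, had 0.44, 0.42 and 0.43 after TSG6 and 0.49, 0.29, 0.57 and 0.33 after TSG6+HA, against values between -0.30 and -0.0005 with a median of -0.14 in untreated KO cultures. No treated array fell within the untreated range, and Kdelr3 rose by 0.57 ± 0.09 (adjusted p = 9.8e-05) after TSG6 and by 0.56 ± 0.08 (adjusted p = 1.19e-05) after TSG6+HA. Sec61b had 0.31, 0.31 and 0.35 after TSG6 and 0.17, 0.33, 0.30 and 0.40 after TSG6+HA, against values between -0.36 and -0.13 with a median of -0.25 in untreated ones. It was above the untreated range on all 7 arrays and rose by 0.58 ± 0.09 (adjusted p = 5.71e-05) after TSG6 and by 0.56 ± 0.08 (adjusted p = 9.14e-06) after TSG6+HA. Sec24d, the other gene with a UPRE, rose by 0.39 ± 0.08 (adjusted p = 0.00123) after TSG6 and by 0.42 ± 0.07 (adjusted p = 7.14e-05) after TSG6+HA.

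Manf had 0.52, 0.36 and 0.15 after TSG6 and 0.49, 0.06, 0.53 and 0.20 after TSG6+HA; the untreated range is given above and held none of these values. It rose by 0.60 ± 0.11 (adjusted p = 6.48e-04) after TSG6 and by 0.58 ± 0.10 (adjusted p = 1.18e-04) after TSG6+HA. Creld2 had 0.41, 0.41 and 0.36 after TSG6 and 0.47, 0.23, 0.49 and 0.22 after TSG6+HA, all above the untreated arrays. It rose by 0.49 ± 0.08 (adjusted p = 1.33e-04) after TSG6 and by 0.45 ± 0.07 (adjusted p = 5.16e-05) after TSG6+HA. Dnajb11 had 0.29, 0.05 and 0.11 after TSG6 and 0.30, 0.11, 0.27 and 0.04 after TSG6+HA, against values between -0.56 and -0.04 with a median of -0.25 untreated. It rose by 0.41 ± 0.11 (adjusted p = 0.0169) after TSG6 and by 0.44 ± 0.10 (adjusted p = 0.00202) after TSG6+HA, without overlap. Sdf2l1 rose by 0.49 ± 0.13 (adjusted p = 0.0216) after TSG6 and by 0.55 ± 0.12 (adjusted p = 0.0016) after TSG6+HA, and its TSG6 arrays overlapped the untreated ones. Pdia3, the isomerase that works with calreticulin and calnexin, rose by 0.47 ± 0.14 (adjusted p = 0.0359) after TSG6 and by 0.37 ± 0.12 (adjusted p = 0.0489) after TSG6+HA, where the groups overlapped (0.37, 0.10, 0.56 and 0.11 with TSG6+HA and values between -0.56 and 0.14 with a median of 0.05 untreated). Its other probe set did not pass after either treatment.

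Hspa5 had 0.33, -0.24 and 0.22 after TSG6 and 0.27, 0.002, 0.33 and 0.17 after TSG6+HA. TSG6 replicate 2 lay among the untreated arrays, and the change after TSG6 was 0.34 ± 0.12 (adjusted p = 0.124) and did not pass. The 18S signal of that array was 3.726, and without it Hspa5 passed after TSG6. Hspa5 also passed there with the mean of its probe sets, without the high-18S arrays and with the 18S signal as a covariate. After TSG6+HA Hspa5 rose by 0.43 ± 0.11 (adjusted p = 0.00993), with 1 array inside the untreated range. Asns changed by 0.69 ± 0.22 (adjusted p = 0.0707) after TSG6, which did not pass with the probe set used and passed with the other, 0.64 (adjusted p = 0.0308). After TSG6+HA Asns rose by 0.79 ± 0.20 (adjusted p = 0.0084). Atf4 changed by 0.16 ± 0.21 (adjusted p = 0.799) after TSG6 and 0.23 ± 0.19 (adjusted p = 0.524) after TSG6+HA, Xbp1 by 0.24 ± 0.23 (adjusted p = 0.7) and 0.31 ± 0.21 (adjusted p = 0.42), and neither gene passed. Xbp1 did pass after TSG6+HA with the 18S signal as a covariate and with the mean of its probe sets. One of these probe sets correlated with the 18S signal at r of 0.914. Ddit3 changed by -0.08 ± 0.24 (adjusted p = 0.933) after TSG6 and -0.11 ± 0.22 (adjusted p = 0.833) after TSG6+HA. Its other probe set was lower after TSG6+HA, -0.64 (adjusted p = 0.0167). Other probe sets also passed after TSG6+HA for Xbp1, 0.32 (adjusted p = 0.02), Pdia6, 0.26 (adjusted p = 0.031), and Hyou1, the exchange factor of BiP, 0.89 (adjusted p = 0.0342) and 0.61 (adjusted p = 0.00285).

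**Figure D3:**
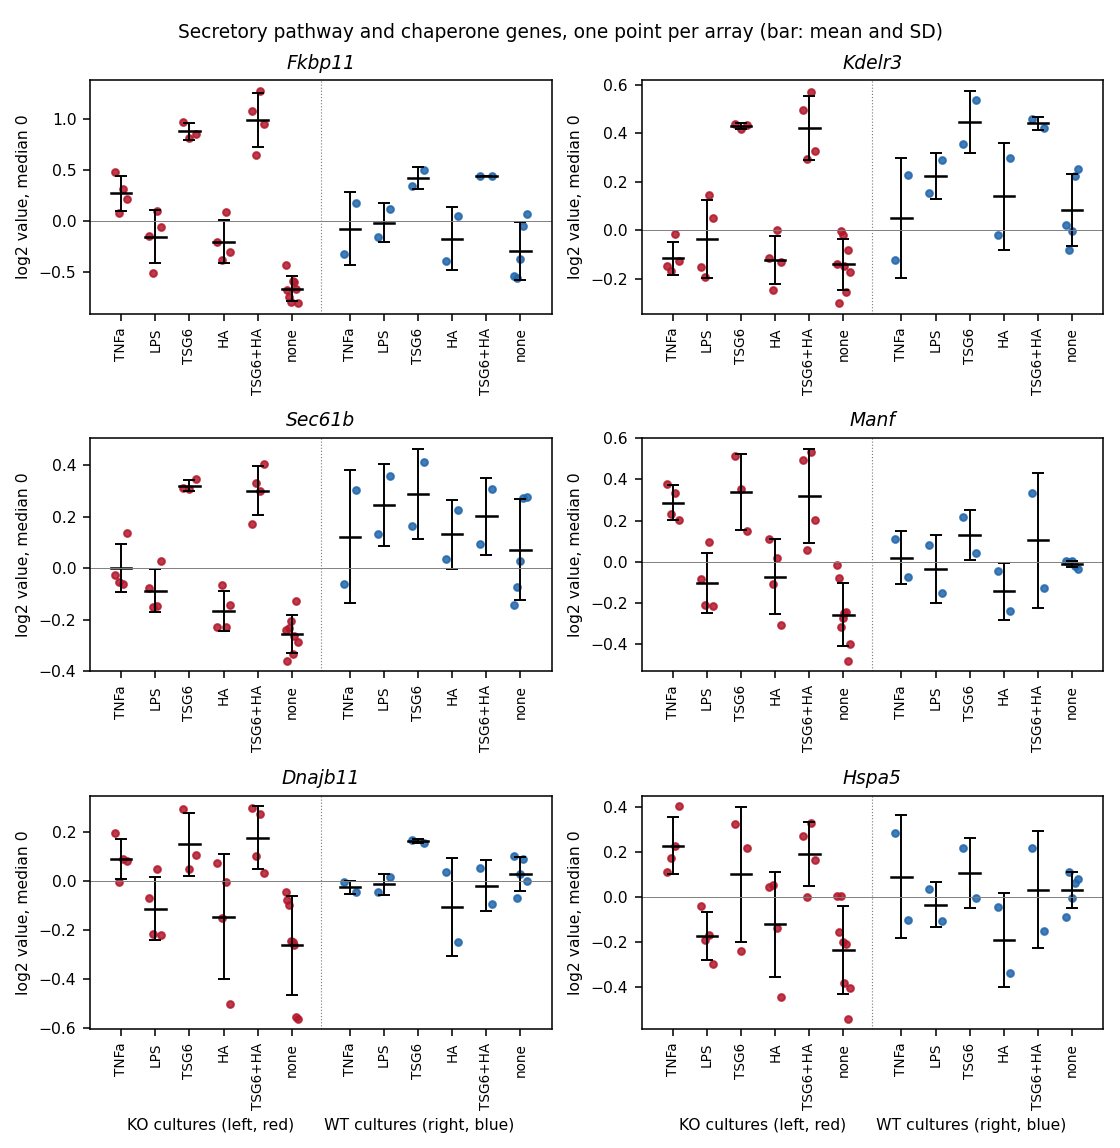
Centred log2 values of 6 genes on every array (points), with the mean and SD of each group (bars), for the 6 KO groups (red, left) and the 6 WT groups (blue, right). Among the KO groups, the means of Fkbp11, Kdelr3 and Sec61b are highest after TSG6 and TSG6+HA; those of Kdelr3 are 0.43 and 0.42 there, against 0.45 and 0.44 in WT cultures given the same agents.

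Setting the treated groups directly against each other, a comparison added after the values had been seen, showed which genes differed between the stimuli. After TSG6, 2 members were higher and 1 lower than after TNFa (4.42% of all genes called); after TSG6+HA, 3 were higher and 1 lower (5.44% of all genes called). The comparisons share the 4 TNFa arrays. Kdelr3 had 0.44, 0.42 and 0.43 after TSG6 and 0.49, 0.29, 0.57 and 0.33 after TSG6+HA, against -0.15, -0.17, -0.02 and -0.13 after TNFa. These groups did not overlap, and the differences were 0.54 ± 0.10 (adjusted p = 4.49e-04) for TSG6 and 0.54 ± 0.10 (adjusted p = 1.48e-04) for TSG6+HA. Fkbp11 was higher by 0.61 ± 0.16 (adjusted p = 0.0169) after TSG6 and by 0.71 ± 0.15 (adjusted p = 0.00123) after TSG6+HA than after TNFa. Sec61b was higher by 0.30 ± 0.09 (adjusted p = 0.0494) after TSG6+HA, while the difference for TSG6 alone, 0.32 ± 0.10 (adjusted p = 0.0645), did not pass. The call of Sec61b was lost without the high-18S arrays and held in 2 of 8 fits that each left out 1 array.

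Ern1 went the other way, with 0.10, -0.27 and 0.02 after TSG6 and -0.08, -0.29, 0.08 and -0.29 after TSG6+HA, against 0.47, 0.35, 0.68 and 0.37 after TNFa. Every TSG6 and TSG6+HA array lay below every TNFa array, and the differences were -0.51 ± 0.13 (adjusted p = 0.0136) for TSG6 and -0.61 ± 0.12 (adjusted p = 6.87e-04) for TSG6+HA. With the mean of a gene's probe sets, the calls of Ern1 and Fkbp11 against TNFa were lost for TSG6 and for TSG6+HA. The differences of Atf4, -0.52 ± 0.23 (adjusted p = 0.279) for TSG6 and -0.45 ± 0.22 (adjusted p = 0.34) for TSG6+HA, did not pass. Hspa5 differed by -0.13 ± 0.14 (adjusted p = 0.815) and -0.04 ± 0.13 (adjusted p = 0.963), Xbp1 by -0.01 ± 0.26 (adjusted p = 0.997) and 0.06 ± 0.24 (adjusted p = 0.972), and Ddit3 by 0.01 ± 0.27 (adjusted p = 0.995) and -0.02 ± 0.25 (adjusted p = 0.99). With the culture set as a block 6 members passed for TSG6 (Atf3, Atf4 and Sec61b besides; 7.19% of all genes called) and 4 for TSG6+HA (8.3%). Without TNFa replicate 4 the count for TSG6 was 5.

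**Figure D4:**
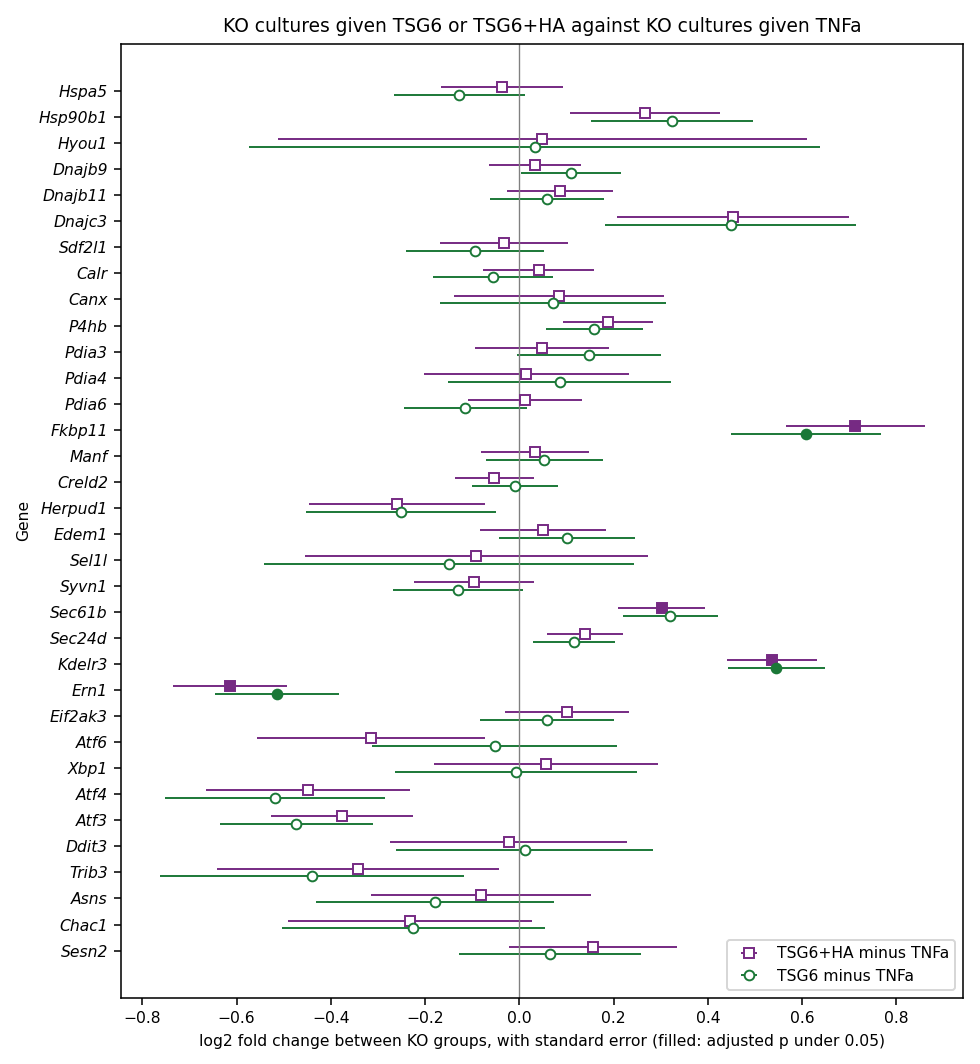
Log2 fold change of each of the 34 genes between KO cultures given TSG6+HA (squares) or TSG6 (circles) and KO cultures given TNFa, with standard errors. Filled symbols, at Fkbp11, Kdelr3 and Ern1 for both and at Sec61b for TSG6+HA, mark adjusted p under 0.05. Open symbols did not pass, and some of them, such as those of Atf3 and Atf4, lie farther from 0 than Sec61b.

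TSG6+HA cultures were also set against cultures given HA alone, again after the values had been seen. Here 5 of 34 members were higher and none lower (0.632% of all genes higher and 1.15% lower, 1.79% called in all). Fkbp11 had 1.08, 0.65, 1.28 and 0.95 with TSG6+HA and -0.20, -0.38, 0.09 and -0.30 with HA alone. The groups did not overlap, and the difference was 1.19 ± 0.15 (adjusted p = 6.83e-06). Kdelr3 differed by 0.54 ± 0.10 (adjusted p = 6.98e-04), Sec61b by 0.47 ± 0.09 (adjusted p = 0.00302), Creld2 by 0.34 ± 0.08 (adjusted p = 0.0262) and Sec24d by 0.32 ± 0.08 (adjusted p = 0.0267). Hspa5, Xbp1, Atf4 and Ddit3 differed by 0.31, 0.16, 0.16 and -0.11 and did not pass. With the 18S signal as a covariate Hspa5 passed. The count was 1 when only these groups entered the fit, where 51 of all genes were called, against 325. It was 3 without HA replicate 2, 3 or 4 or without TSG6+HA replicate 1 or 3.

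In KO cultures, LPS changed 1 of 34 members (1.79% of all genes called) and HA none (0.643%). By limma at an unadjusted p under 0.05, HA gave 2 of 34 members, against 6.9% of all genes. Fkbp11 had -0.14, -0.51, 0.10 and -0.05 after LPS and -0.20, -0.38, 0.09 and -0.30 after HA, against the untreated range of -0.80 to -0.42. One LPS array lay inside that range and no HA array did. Fkbp11 rose by 0.51 ± 0.13 (adjusted p = 0.0265) after LPS, a call lost without LPS replicate 1, 3 or 4 or untreated replicate 4; its change after HA was 0.46 ± 0.13 (adjusted p = 0.108). Hspa5 changed by 0.06 ± 0.11 (adjusted p = 0.948) after LPS and 0.12 ± 0.11 (adjusted p = 0.95) after HA, Xbp1 by 0.11 ± 0.21 (adjusted p = 0.954) and 0.15 ± 0.21 (adjusted p = 0.965), Atf4 by 0.28 ± 0.19 (adjusted p = 0.705) and 0.07 ± 0.19 (adjusted p = 0.982), and Ddit3 by -0.10 ± 0.22 (adjusted p = 0.962) and -0.01 ± 0.22 (adjusted p = 0.999). With the culture set as a block, 3 members were higher after LPS (Fkbp11, Asns and Chac1; 3.96% of all genes called) and 1 after HA (Fkbp11; 1.68%).

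In WT cultures, with 2 arrays per treatment, 1 member rose after TNFa (2.56% of all genes called) and 1 after TSG6+HA (0.802%). None passed after LPS (1.19%), TSG6 (0.429%) or HA (0.132%). At an unadjusted p under 0.05 limma gave 1, 4 and 0 members there, against 6.2%, 3.96% and 4.09% of all genes. Ern1 had 0.32 and 0.19 after TNFa, against -0.21, -0.44, -0.39, -0.63 and -0.74 in untreated WT cultures. Both TNFa arrays lay above the 5 untreated ones, and Ern1 rose by 0.74 ± 0.14 (adjusted p = 0.00113); the call was lost without TNFa replicate 1, and it came from 1 of 5 probe sets. Fkbp11 had 0.44 and 0.44 after TSG6+HA and 0.35 and 0.50 after TSG6, against -0.54, -0.56, -0.37, -0.05 and 0.07 in untreated ones. All 4 treated arrays were above the untreated ones; Fkbp11 rose by 0.73 ± 0.17 (adjusted p = 0.0304) after TSG6+HA, and its change after TSG6, 0.71 ± 0.17 (adjusted p = 0.0576), did not pass. The call after TSG6+HA was lost without either treated array, without untreated replicate 1, 2 or 3, and without the high-18S arrays. The change after TSG6 passed without untreated replicate 4 or 5.

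Kdelr3 had 0.36 and 0.54 after TSG6 and 0.46 and 0.42 after TSG6+HA in WT cultures, against 0.02, -0.08, -0.00095, 0.22 and 0.25 untreated. Again no treated array fell within the untreated range, but the changes of 0.36 ± 0.11 (adjusted p = 0.326) and 0.36 ± 0.11 (adjusted p = 0.189) did not pass. Hspa5 changed by 0.06, -0.07, 0.08, -0.22 and 0.0014 after TNFa, LPS, TSG6, HA and TSG6+HA. Xbp1 changed by -0.25, 0.13, 0.21, -0.02 and -0.02 in the same order, and Atf4 by 0.29, 0.24, 0.22, 0.01 and -0.02. Ddit3 changed by -0.21, 0.15, -0.02, 0.08 and -0.16, and none of these 4 genes passed after any treatment.

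Whether KO and WT cultures responded differently was tested directly as the difference of their responses. No member passed for any of the 5 treatments, where 0.808%, 0.214%, 0.0824%, 0.044% and 0.181% of all genes were called for TNFa, LPS, TSG6, HA and TSG6+HA. By limma at an unadjusted p under 0.05 there were 6, 1, 6, 0 and 7 of the 34 members. Of all genes, 7.04%, 2.97%, 4.05%, 2.2% and 7.05% reached this in the same order. The smallest adjusted p for TSG6+HA was that of Fkbp11, with a response larger by 0.92 ± 0.22 (adjusted p = 0.0659) in KO cultures, and for TNFa that of Creld2, larger by 0.45 ± 0.12 (adjusted p = 0.0931). With the culture set as a random block, Creld2 and Fkbp11 passed for TNFa (adjusted p = 0.0453 and 0.0378) and Fkbp11 for TSG6+HA (adjusted p = 0.0109), where 1.53% and 0.511% of all genes were called. One member also passed for TNFa without KO untreated replicate 4, and 1 for TSG6+HA without WT untreated replicate 1 or KO TSG6+HA replicate 2.

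Untreated KO cultures had lower Trib3, Asns, Chac1, Atf4 and Atf3 than untreated WT cultures, the sign of Atf3 turning under cyclic loess, and lower Hsp90b1, Edem1, Sec61b, Fkbp11, Dnajb11, Hspa5, Manf and Kdelr3. Of 34 members, 13 were lower and 3 higher; over all genes 16.3% were lower and 21.3% higher (37.6% called in all). The median of the 34 was -0.20, against 0.03 over all genes. With the culture set as a random block 11 were lower and 2 higher (32.9% of all genes called), and without WT untreated replicate 4 the count of 16 became 10. Centring each array on its median gave 1 higher and 13 lower, and cyclic loess 2 higher and 11 lower. Because each probe set is centred, cyclic loess fits its trend against the centred value rather than signal. It can therefore remove a difference between genotypes, and a call lost or sign turned under it does not decide that difference. In bulk cultures fewer cells of a type and less RNA per cell cannot be told apart. The endothelial markers given above moved with the genotype in every group, 8 of 9 passing the test with a median difference of -5.20, and their part in these differences was not tested. Under cyclic loess 4 of the 9 passed, all lower, with a median of -0.21.

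Trib3 had values between -1.59 and 0.01 with a median of -0.64 in untreated KO cultures, against 1.41, 1.37, 1.25, 2.29 and 2.36 in untreated WT cultures. All KO arrays were below all WT arrays, and Trib3 was lower, at -2.46 ± 0.24 (adjusted p = 1.34e-10), a WT level 5.5 times the KO level. Both of its probe sets passed. Within untreated cultures, its means were -0.30 and -1.15 in the KO culture sets and 1.34 and 2.33 in the WT culture sets.

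Atf3, a stress-induced repressor of the ATF family, had values between -0.54 and 0.13 with a median of -0.13 in untreated KO cultures, against 1.24, 1.26, 1.41, 1.49 and 1.56 in WT. It was lower, at -1.52 ± 0.12 (adjusted p = 8.4e-13) with no overlap. Under cyclic loess normalization, with the limit given above, the sign turned to 0.39 (adjusted p = 0.00939). Asns had values between -1.14 and -0.34 with a median of -0.82 in KO and 0.24, 0.08, 0.18, 1.05 and 1.15 in WT cultures. Chac1 had values between -1.02 and -0.11 with a median of -0.56 in KO and 0.20, 0.09, 0.27, 1.12 and 1.08 in WT cultures. In both genes all KO arrays were below all WT arrays; Asns was lower, at -1.29 ± 0.19 (adjusted p = 6.33e-07) and Chac1 was lower, at -1.11 ± 0.21 (adjusted p = 3.96e-05). Both were also uneven within WT, where replicates 4 and 5, the second culture set, were highest. Atf4 itself was lower, at -0.46 ± 0.17 (adjusted p = 0.0327) with overlapping groups, at values between -0.81 and 0.07 with a median of -0.30 in KO and -0.51, -0.03, 0.03, 0.60 and 0.54 in WT. Ddit3 changed by -0.18 ± 0.20 (adjusted p = 0.559), Xbp1 by -0.16 ± 0.19 (adjusted p = 0.58) and Sesn2 by 0.16 ± 0.14 (adjusted p = 0.454), and none passed.

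Of the folding genes, Hsp90b1 had values between -0.91 and 0.11 with a median of -0.31 in untreated KO cultures, against 0.30, 0.51, 0.26, 0.38 and 0.37 in WT, with no overlap. It was lower, at -0.69 ± 0.13 (adjusted p = 2.93e-05), and its other probe set passed too. Edem1, which sends misfolded glycoproteins to degradation, had values between -0.60 and 0.09 with a median of -0.13 in KO and 0.28, 0.33, 0.54, 0.48 and 0.52 in WT cultures, also without overlap, and was lower, at -0.62 ± 0.11 (adjusted p = 1.23e-05). Fkbp11 was lower, at -0.37 ± 0.12 (adjusted p = 0.0123) and Hspa5 was lower, at -0.27 ± 0.10 (adjusted p = 0.0405), both with overlapping groups; the call of Hspa5 was lost with the culture set as a random block (adjusted p = 0.12). Sec61b, Dnajb11, Manf and Kdelr3 were also lower (-0.33, -0.29, -0.25 and -0.22), the call of Manf being lost with the random block (adjusted p = 0.102). The 3 higher members were Ern1, 0.56 ± 0.10 (adjusted p = 1.26e-05), P4hb, the isomerase that is also a subunit of collagen prolyl hydroxylase, 0.21 ± 0.08 (adjusted p = 0.0291), and Dnajb9 (ERdj4), 0.21 ± 0.08 (adjusted p = 0.0327). The call of Dnajb9 was lost with the random block (adjusted p = 0.0877), with array medians (adjusted p = 0.0885), under cyclic loess (adjusted p = 0.254) and without the high-18S arrays (adjusted p = 0.0567). That of P4hb was lost with array medians (adjusted p = 0.0705), under cyclic loess (adjusted p = 0.089) and without the high-18S arrays. That of Ern1 was lost with the mean of its probe sets (adjusted p = 0.0874). Without those arrays the calls of Fkbp11, Hspa5 and Atf4 were lost too (adjusted p = 0.085, 0.112 and 0.298). Probe sets disagreed in direction for Pdia3, 0.21 (adjusted p = 0.179) for the one used and -0.18 (adjusted p = 0.0333) for the other, and for Pdia6, 0.23 (adjusted p = 0.0621) and -0.24 (adjusted p = 0.00724).

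Under treatment, KO cultures were set against WT cultures given the same agent, and 4 members were higher and 2 lower under TNFa (23.5% of all genes called), 1 and 6 under LPS (24%), 3 and 3 under TSG6 (18.9%), 4 and 5 under HA (23.3%), and 4 and 3 under TSG6+HA (21.6%). Cyclic loess gave 3 higher and 0 lower under TNFa, 0 and 4 under LPS, 0 and 1 under TSG6, 0 and 1 under HA, and 1 and 0 under TSG6+HA. Over all genes it called 1920, 1865, 831, 1500 and 1231 in the same order, against 4273, 4363, 3444, 4236 and 3935 on the deposited scale. The limit of cyclic loess given above holds for these comparisons too. Array medians gave 3 and 5 under TSG6, 3 and 6 under HA, and 3 and 4 under TSG6+HA (3458, 4267 and 3929 of all genes called). Without the second WT array of a treatment, 2 members passed under LPS, TSG6, HA or TSG6+HA. The comparisons rest on 2 WT arrays each. Atf3 was lower in KO cultures under all 5 treatments, by log2 differences between -1.50 (HA, where cyclic loess turned the sign) and -2.35 (TSG6). Under cyclic loess the call of Atf3 was lost under TNFa, LPS, HA and TSG6+HA (adjusted p = 0.609, 0.301, 0.396 and 0.765) and held under TSG6 (adjusted p = 0.0475). Trib3 was lower under all 5 as well, by differences between -1.65 (TNFa, where cyclic loess turned the sign) and -2.51 (HA). Under cyclic loess the call of Trib3 was lost under all 5, with adjusted p of 0.932, 0.165, 0.229, 0.0911 and 0.209 for TNFa, LPS, TSG6, HA and TSG6+HA. Asns was lower under LPS, TSG6, HA and TSG6+HA (-0.89, -0.97, -1.31 and -0.90) and did not pass under TNFa (-0.70 ± 0.29, adjusted p = 0.0775). Chac1 passed under HA alone of the treatments, -1.09 ± 0.32 (adjusted p = 0.00965).

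Under TNFa, Sdf2l1 had 0.62, 0.27, 0.48 and 0.37 in KO cultures and -0.41 and -0.18 in WT cultures. The groups were apart, with a difference of 0.73 ± 0.17 (adjusted p = 9.21e-04). Creld2 had 0.45, 0.38, 0.41 and 0.39 in KO and -0.21 and 0.02 in WT cultures under TNFa, also apart, with a difference of 0.50 ± 0.10 (adjusted p = 2.78e-04). Pdia3 differed by 0.59 ± 0.17 (adjusted p = 0.0105) and Herpud1, a membrane protein of ER-associated degradation, by 0.64 ± 0.23 (adjusted p = 0.0368) there. The other probe set of Pdia3 gave -0.03 (adjusted p = 0.925). Creld2 and Pdia3 were higher in KO cultures under TSG6 (0.38 and 0.55), HA (0.29 and 0.51) and TSG6+HA (0.45 and 0.54) too, and Sdf2l1 also under TSG6 (0.52). P4hb was higher under HA (0.34) and TSG6+HA (0.33), and Fkbp11 under TSG6+HA (0.55). Ern1 was higher under LPS (0.45) and HA (0.62). Edem1 was lower under LPS (-0.57) and HA (-0.52), and Hsp90b1 and Sec61b under LPS (-0.63 and -0.33). Under the random block of culture sets the calls of Pdia3 and Sdf2l1 under TSG6 (adjusted p = 0.0523 and 0.0528), Creld2 under HA (adjusted p = 0.062) and Herpud1 under TNFa (adjusted p = 0.0528) were lost. Cyclic loess kept the calls of Sdf2l1, Creld2 and Pdia3 under TNFa, Creld2 under TSG6+HA, and Edem1, Hsp90b1 and Sec61b under LPS. The other calls given here were lost under it. With the mean of its probe sets every call of Pdia3 was lost. The call of Pdia3 under TSG6 was lost without KO TSG6 replicate 1, 2 or 3, and that of Sdf2l1 there without replicate 1 or 2. That of Creld2 under HA was lost without KO HA replicate 1 or 3. Hspa5, Xbp1, Atf4 and Ddit3 passed under none of the 5 treatments, with differences from -0.53 to 0.34. With the mean of its probe sets Xbp1 passed under TSG6+HA.

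**Figure D5:**
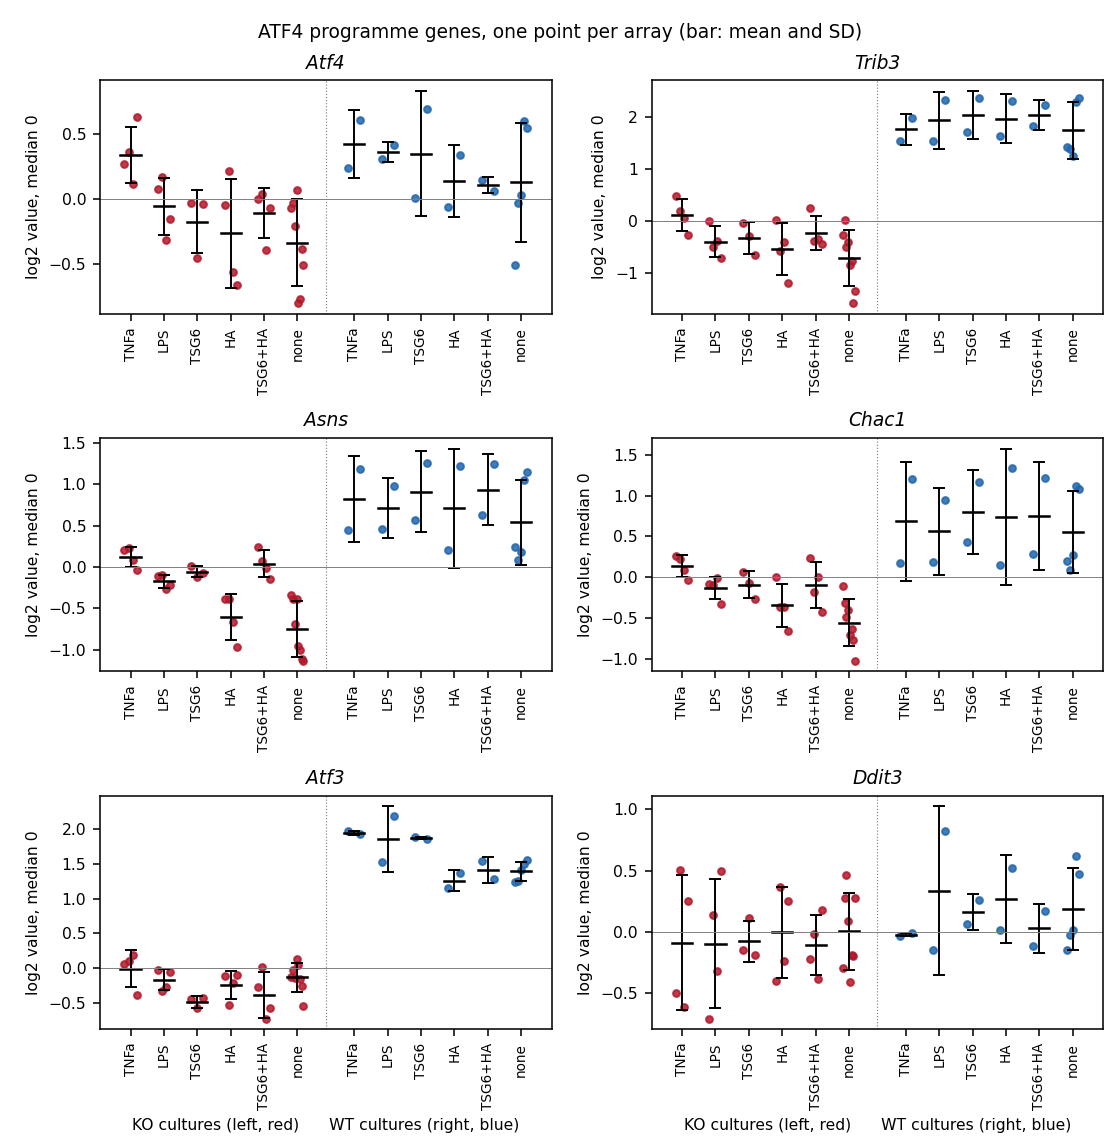
Centred log2 values of Atf4, 5 genes it is known to drive and their groups' means and SD, 1 point per array, for the 6 KO groups (red, left) and the 6 WT groups (blue, right). Trib3 and Atf3 are lower on every KO array than on any WT array on the deposited scale (cyclic loess turned the sign for Atf3 untreated and under HA and for Trib3 under TNFa, and under treatment kept only the call of Atf3 with TSG6), whereas Atf4 and Ddit3 overlap between genotypes.

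Correlations over the 42 arrays after removing group means were r of 0.937 for Asns with Chac1, 0.854 for Trib3 with Asns and 0.831 for Trib3 with Chac1. For Atf4, r was 0.727 with Asns, 0.561 with Chac1 and 0.544 with Trib3. For Atf3, r was 0.442 with Trib3, 0.365 with Asns, 0.328 with Chac1 and 0.155 with Atf4. The arrays share culture sets and 18S signal, so these values are a description. The 18S signal moved with many folding and sensor genes within groups: r was -0.893 for Atf6, -0.87 for Xbp1, -0.848 for Calr, -0.796 for Sel1l, -0.793 for Hspa5 and -0.787 for Manf. It was -0.0769 for Fkbp11, 0.133 for Kdelr3, -0.179 for Trib3 and 0.173 for Asns. With the 18S signal as a covariate, an alternative chosen after seeing the data, 14 members passed for TNFa, 11 for TSG6 and 15 for TSG6+HA in KO cultures. Of the 18194 genes, 3101, 1251 and 2333 passed in these comparisons with the covariate, against 2552, 864 and 1809 without it.

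On the probe sets used, and without a block or covariate, these members passed in none of the 24 comparisons: Hyou1, Dnajc3, Calr, Canx, Pdia4, Pdia6, Sel1l, Syvn1, Eif2ak3, Atf6, Xbp1, Ddit3 and Sesn2. The share of all genes that passed in none was not counted. Other probe sets of Hyou1, Pdia6, Xbp1 and Ddit3 passed after TSG6+HA in KO cultures, as given above. Several of the listed members varied widely between arrays of a group, with pooled SD of 0.844 for Hyou1, 0.544 for Sel1l, 0.374 for Ddit3 and 0.352 for Xbp1. The pooled SD was 0.0989 for Sec24d, 0.107 for Creld2 and 0.122 for Sec61b, which passed with changes of less than 1 log2 unit. Other members went the other way. The pooled SD was 0.163 for Calr, 0.168 for Pdia6, 0.179 for Syvn1 and 0.185 for Eif2ak3, which are on the list. It was 0.446 for Trib3, 0.385 for Chac1 and 0.347 for Asns, which passed. Sel1l, the adaptor of the ubiquitin ligase Syvn1, had 0.60, -0.15, 0.45 and -0.30 in KO TNFa cultures and values between -0.57 and 0.79 with a median of 0.44 in untreated KO cultures. Syvn1 had 0.20, 0.05, 0.27 and 0.14 in KO TNFa cultures and values between -0.21 and 0.45 with a median of -0.02 in untreated ones. Dnajc3, a co-chaperone that also restrains PERK, changed by 0.50 ± 0.24 (adjusted p = 0.286) after TSG6 and 0.51 ± 0.21 (adjusted p = 0.144) after TSG6+HA in KO cultures. In untreated cultures, 3 of its other 4 probe sets were lower in KO than in WT, by up to 0.47 (adjusted p = 4.81e-04).

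The lists of other genes of the same pathways were chosen by function, with earlier results of these data known. Of the other translocon and signal peptidase genes, 4 of 12 were higher and 0 lower after TSG6 in KO cultures, and 7 of 12 were higher and 0 lower after TSG6+HA, with Sec61a1, the pore subunit, at 0.72 ± 0.24 (adjusted p = 0.0457) and Ssr2 at 0.59 ± 0.09 (adjusted p = 1.42e-05). After TNFa 1 of 12 was higher and 1 lower. Of the other vesicle coat and KDEL receptor genes, 4 of 19 were higher and 0 lower after TSG6 and 8 of 19 were higher and 0 lower after TSG6+HA, led by Kdelr2 at 0.90 ± 0.20 (adjusted p = 0.00268) and Surf4 at 0.72 ± 0.14 (adjusted p = 6.05e-04). After TNFa 3 of 19 were higher and 0 lower. Of the other folding enzymes and chaperones, 5 of 18 were higher and 1 lower after TNFa, led by the oxidase Ero1a at 0.65 ± 0.17 (adjusted p = 0.00625). After TSG6 3 of 18 were higher and 0 lower, and after TSG6+HA 4 of 18 were higher and 1 lower, where Fkbp14 reached 0.88 ± 0.11 (adjusted p = 7.05e-07). Of the other genes of ER-associated degradation, 1 of 15 was higher after TNFa (Derl2, 0.33 ± 0.10, adjusted p = 0.0165) and none passed after TSG6 or TSG6+HA.

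Of 24 other genes of the integrated stress response, 7 were higher and 0 lower after TNFa in KO cultures, led by Mthfd2, of mitochondrial folate metabolism, at 1.40 ± 0.27 (adjusted p = 1.96e-04) and Cth at 0.92 ± 0.27 (adjusted p = 0.02). In untreated KO against WT cultures, 4 were higher and 15 lower, with a median of -0.73; Mthfd2 was at -2.01 ± 0.25 (adjusted p = 2.1e-08) and Psat1, of serine synthesis, at -1.89 ± 0.21 (adjusted p = 2.84e-09). All 12 aminoacyl-tRNA synthetases were lower there, with a median of -0.71, against 0.03 over all genes. Cars was at -0.93 ± 0.15 (adjusted p = 3e-06) and Gars at -0.83 ± 0.13 (adjusted p = 1.83e-06). Cyclic loess, which fits its trend on the centred values, gave 3 higher and 8 lower of the 24 genes, with a median of -0.11, and 10 of the 12 synthetases lower, with a median of -0.68. Under it the calls of Psat1 (-0.07, adjusted p = 0.82) and Cars (-0.32, adjusted p = 0.0528) were lost, and those of Mthfd2 (-2.03, adjusted p = 1.46e-07) and Gars (-0.74, adjusted p = 9.14e-06) held. After TNFa in KO cultures 3 of the 12 were higher. These differences between genotypes stand beside the endothelial marker difference given above, and its part in them was not tested.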

How the data were processed

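RNA of 42 cultures was measured on 1-colour Affymetrix arrays with 45101 probe sets. The deposited values are on a log scale taken as log2, and RMA is named in the submitters' processing notes without a version. Base 2 was inferred from the values. Each probe set has a median of 0 over the arrays, so the values carry no signal level and the planned filter on dim probe sets could not be applied. GEO's annotation gave 34958 probe sets 1 gene, 932 several and 9211 none, and 34754 of the first matched RefSeq by gene number. Each of 18194 genes was represented by its most variable single-gene probe set, avoiding those that correlated above 0.7 with the 18S control where another existed. A limma 3.58.1 fit (R 4.3.3) used 1 mean for each of 12 groups, with Benjamini-Hochberg adjustment over all genes and a threshold of 0.05. It was tested on simulated data. Culture sets were read from probe sets with separated levels, keeping only splits with arrays of every group on both sides. They were used as a fixed block within a genotype and a random block (duplicateCorrelation) between genotypes. Named in each comparison were Hspa5, Xbp1, Atf4, Ddit3 and up to 8 called members in each direction, and up to 2 called genes of each other list. Members and lists were chosen with earlier results of these data known. No arrays held identical values; their number sets a limit on precision.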

Additional observations from a re-analysis of the deposited data

Results flagged for a closer look

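Of 204 tests of a gene in a group of 4 to 10 arrays, 3 found an array standing apart from the others of its group; chance alone does so in about 1 of 20. P4hb was at 0.138 on KO TNFa replicate 3, where the nearest of the other 3 arrays was at -0.02. Sec24d was at 0.506 on KO TSG6+HA replicate 3, with the nearest at 0.245. Trib3 was at 0.24 on KO TSG6+HA replicate 1, with the nearest at -0.36. The 18S signal of these arrays was -0.743, -1.15 and 0.0505, and its part was not tested.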

How the results depend on the processing

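Counts of members that passed are given here where they moved by over 1.5 times. The number of all genes called often moved with them. With only the groups compared, it was 2794 against 4236 for KO against WT under HA and 2656 against 3935 under TSG6+HA. With the mean of a gene's probe sets it moved the other way, to 363 from 326 for KO LPS, 497 from 466 for WT TNFa and 1163 from 989 for TSG6+HA against TNFa. In KO cultures TNFa gave 13, and 8 without the high-18S arrays (9 to 13 with 1 array left out). TSG6+HA gave 11, and 7 when only genes with an SD above the median were tested (9 to 12). That SD filter left 24 of the 34 members to be tested, in every comparison. TSG6 gave 9 (6 to 11). LPS gave 1, 0 with the mean of a gene's probe sets and 3 with the culture set block (0 to 1). HA gave 0, and 1 with the culture set block. TSG6 against TNFa gave 3, 5 with cyclic loess and 6 with the culture set block (2 to 5). TSG6+HA against TNFa gave 4, and 2 with the mean of probe sets (3 to 5). TSG6+HA against HA gave 5, 3 with the SD filter, 1 with only these groups, 3 without the high-18S arrays and 8 with the 18S covariate (3 to 6). In WT cultures LPS gave 0, and 1 with cyclic loess. TNFa gave 1, 0 with the mean of probe sets or only these groups, and 2 with cyclic loess (0 to 1). TSG6 gave 0, and 1 with array medians, cyclic loess, the SD filter, the culture set block, the 18S covariate or without the high-18S arrays (0 to 1). TSG6+HA gave 1, 2 with the culture set block, and 0 with the mean of probe sets, only these groups or without the high-18S arrays (0 to 1). The response difference for TNFa gave 0, and 2 with the culture set block (0 to 1); that for TSG6+HA gave 0, and 1 with array medians, cyclic loess, the SD filter or the culture set block (0 to 1). KO against WT gave 16 untreated (10 to 16), 6 under TNFa (3 with cyclic loess; 5 to 7) and 7 under LPS (4 with cyclic loess, 2 without the high-18S arrays; 2 to 7). Under TSG6 it gave 6, 1 with cyclic loess and 10 with the 18S covariate (2 to 5). Under HA it gave 9, 1 with cyclic loess, 4 with only these groups and 3 without the high-18S arrays (2 to 10). Under TSG6+HA it gave 7, 1 with cyclic loess, 3 with only these groups and 4 without the high-18S arrays (2 to 9). Under each treatment cyclic loess also called fewer of all genes, as given above. Signs turned for 3 results, all with cyclic loess: Atf3 in untreated KO against WT (0.39, adjusted p = 0.00939) and under HA (0.26, adjusted p = 0.396), and Trib3 under TNFa (0.067, adjusted p = 0.932). Because each probe set is centred, that method fits its trend against the centred value rather than signal; under it the endothelial marker median in untreated KO against WT cultures was -0.21, against -5.20 on the deposited scale. No scaling moved the median of all genes by over 0.1. Of the single-member alternatives, 3225 kept direction and side of the threshold, 250 lost the call, 9 gained it and 3 turned. They cover Hspa5, Xbp1, Atf4, Ddit3 and the called members named in each comparison, so gains by other members were not counted. Replicate numbers did not pair the arrays: same-numbered arrays correlated between -0.652 and 0.591 after group means were removed. With the replicate block the counts were 1 for KO HA, 5 for TSG6 against TNFa and 8 for TSG6+HA against HA. In WT cultures they were 1 for LPS, 2 for TNFa, 4 for TSG6 and 3 for TSG6+HA. The response difference with TSG6+HA gave 1, and no other count moved by over 1.5 times. Of all genes this block called 361, 1289, 760, 478, 823, 299, 487 and 75 in the same order. Without it 117, 804, 325, 217, 466, 78, 146 and 33 were called. Signal over background, spliced Xbp1 and absolute levels could not be read from these values, and groups of 2 WT arrays borrow their spread from the other groups.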

Other observations

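Of 17 genes of collagen and its processing, 6 were higher and 0 lower in KO cultures after TSG6 (2.1% of all genes higher), and 8 were higher and 0 lower after TSG6+HA (3.33% of all genes higher), with medians of 0.37 and 0.38. Col3a1, a fibrillar collagen, was at 1.17 ± 0.22 (adjusted p = 6.48e-04) after TSG6 and 1.36 ± 0.20 (adjusted p = 8.26e-06) after TSG6+HA, and Col5a2 at 0.95 ± 0.14 (adjusted p = 3.03e-05) and 0.96 ± 0.13 (adjusted p = 2e-06). After TNFa 1 of 17 was higher (P4ha2, a collagen prolyl hydroxylase, 0.97 ± 0.09, adjusted p = 1.08e-10). In untreated KO against WT cultures 3 of 17 were higher and 7 lower, and under cyclic loess 0 were higher and 5 lower.

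Of 11 measured genes of the cytosolic heat shock response, 2 were higher after TNFa in KO cultures, Hspa1b at 0.80 ± 0.24 (adjusted p = 0.0214) and Dnajb1 at 0.21 ± 0.07 (adjusted p = 0.0255); the call of Dnajb1 was lost under cyclic loess (adjusted p = 0.058). One was higher after TSG6 and after TSG6+HA, the mitochondrial chaperonin Hspd1, at 0.37 ± 0.10 (adjusted p = 0.0315) and 0.37 ± 0.09 (adjusted p = 0.00735). In untreated KO against WT cultures 1 was higher and 5 lower.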
